A study of Mus musculus with 9 samples.

Results

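The 5 genes described here are Apoe, Abcg1, Abca9, Abcd2 and Mylip, which handle cholesterol and fatty acids and were all lower after bacterial lipopolysaccharide (LPS) than before it. They were chosen by name from 6462 genes in the deposited table, at a time when their levels in these 9 libraries were already known. Their levels and differences are therefore given as a description, without p-values. They entered the fit over all genes, and whether that fit called them is stated beside the share of all genes called. RNA was sequenced from BV2 cells, an immortalized line of mouse microglia, the resident macrophages of the brain. One group of 3 libraries came from untreated cells (0 h), one of 3 from cells given LPS at 200 ng/ml for 1 h, and one of 3 from cells given the same dose for 12 h. LPS, a bacterial cell wall lipid, is sensed by microglia through Toll-like receptor 4. The labels name no other agent or genetic change, and do not state whether libraries within a group are separate cultures. The p-values below then measure the spread between these libraries only. Untreated cells were sampled at 0 h alone, and therefore LPS cannot be told apart from time in culture.

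Cells cannot break down the sterol ring, so macrophages and microglia pass surplus cholesterol to extracellular acceptors. Apolipoprotein E is the main secreted lipid carrier of the brain, and ABC transporters are membrane pumps driven by ATP hydrolysis, several of which move lipids. Many genes of this route are switched on by the liver X receptors (LXR), nuclear receptors that sense oxysterols and pair with retinoid X receptors. Among the 5 genes, Abcg1 encodes a transporter that hands cholesterol to lipoprotein particles, and Mylip (also called IDOL) encodes a ubiquitin ligase that limits the uptake of lipoproteins. Apoe, Abcg1 and Mylip are known LXR targets. Abcd2 encodes a transporter that brings very long chain fatty acids into peroxisomes, and Abca9 is a member of the ABCA subfamily in a cluster of related genes.

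All 5 genes were lower after LPS, but the shapes of their falls differed. The sequence just upstream of the start site was therefore looked at, and it is shown for 3 of the 5 genes. No window was available here for Abcg1 or Abcd2. The windows come from RefSeq on GRCm38.p6 and are written 5′ to 3′ on the strand of the gene. For Apoe the window is chr7:19699189-19699438 on the minus strand, for Abca9 chr11:110168197-110168403 on the minus strand, and for Mylip chr13:45389492-45389741 on the plus strand. Capitals mark matches to the motifs named below.
Apoe: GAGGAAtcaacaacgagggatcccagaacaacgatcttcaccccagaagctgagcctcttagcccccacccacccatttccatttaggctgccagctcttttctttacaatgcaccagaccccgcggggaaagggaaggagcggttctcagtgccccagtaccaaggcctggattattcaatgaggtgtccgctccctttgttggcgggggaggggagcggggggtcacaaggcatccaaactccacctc
Abca9: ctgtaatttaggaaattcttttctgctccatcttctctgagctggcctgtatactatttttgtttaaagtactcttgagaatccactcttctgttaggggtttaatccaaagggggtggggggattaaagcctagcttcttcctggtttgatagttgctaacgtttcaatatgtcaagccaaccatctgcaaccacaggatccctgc
Mylip: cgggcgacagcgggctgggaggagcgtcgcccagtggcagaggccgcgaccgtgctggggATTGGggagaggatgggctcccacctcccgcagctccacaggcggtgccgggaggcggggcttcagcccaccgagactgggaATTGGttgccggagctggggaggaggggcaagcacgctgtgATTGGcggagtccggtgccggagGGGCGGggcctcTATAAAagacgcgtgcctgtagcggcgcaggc
The windows of Apoe and Mylip hold the 250 bases before the start. That of Abca9 holds 207, since 43 bases nearer the start lie in an annotated exon and were left out. RefSeq lists 3 windows for Apoe, and the one shown ends at the start of the transcript named in the deposited annotation.

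In all, 9 motifs were searched on both strands, and none of those searched overlaps another where it matched. TATAAA was found once, in Mylip, 32 to 27 bases before the start, and 12.4% of 32851 windows of 250 bases hold it. CCAAT was found 3 times, all in Mylip on the opposite strand, as ATTGG at 190 to 186, 108 to 104 and 67 to 63 bases before the start, against a share of 33.8% of windows with at least 1 match. GGGCGG, the GC box, lay in Mylip at 44 to 39 bases, with a share of 32.7%. GAGGAA, a core of sites for PU.1, lay in Apoe at 250 to 245 bases, with a share of 23.3%. No match was found in the 3 windows for AGGTCA (in 14.02% of all windows), CACGTG (6.02%), the NF-κB motif (5.001%), the LXR element DR4 (3.55%) or the AP-1 motif (4.46%). The GC content was 57.2% for Apoe, 42.5% for Abca9 and 71.2% for Mylip, beside a median of 52.4% over all windows. A match describes letters only, and a missing match says nothing about a factor.

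Apoe was the most abundant of the 5 genes in each group. Values are FPKM, fragment counts scaled by transcript length and by the mapped fragments of the library. The 3 untreated libraries had 699.6, 622.2 and 618.3 FPKM of Apoe, those at 1 h 553.4, 574.5 and 562.3, and those at 12 h 275.2, 292.4 and 285.6. No library of one group reached the range of another, and untreated library 1 stood highest. The means were 647 ± 45.8 (SD, n = 3, as throughout), 563 ± 10.6 and 284 ± 8.66 FPKM, so Apoe held 87.1% of its untreated level at 1 h and 44.0% at 12 h. By level it ranked 29th of the 6462 listed genes in untreated cells, 36th at 1 h and 100th at 12 h. It thus remained among the most abundant listed transcripts while it stood 2.27-fold lower at 12 h than in untreated cells.

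Abcg1, the cholesterol transporter, was lower by 1 h and differed less between 1 h and 12 h. Its level was 14.7, 14.2 and 14.6 FPKM in untreated libraries, 10.1, 10.02 and 10.9 at 1 h, and 9.84, 8.91 and 9.38 at 12 h. The untreated values lay well above both LPS groups, and the ranges of the LPS groups lay close together without overlap. The means of 14.5 ± 0.271, 10.3 ± 0.514 and 9.37 ± 0.464 FPKM left 71.3% at 1 h and 64.6% at 12 h. Of the fall in FPKM at 12 h, 81.0% was present at 1 h.

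Abca9 showed the opposite timing. Untreated libraries had 14.7, 14.03 and 13.04 FPKM, those at 1 h 11.6, 11.2 and 12.6, and those at 12 h 1.84, 1.93 and 1.75. The first 2 groups nearly touched (13.04 against 12.59), while the 12 h libraries stood far below both. The means were 13.9 ± 0.830, 11.8 ± 0.702 and 1.84 ± 0.0868 FPKM. Abca9 kept 84.8% of its level at 1 h and 13.2% at 12 h, a 7.56-fold lower level, and 17.5% of the fall was present at 1 h. Among the 5643 tested genes it had the 6th lowest log2 difference at 12 h from untreated cells.

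Abcd2, the peroxisomal transporter, was lower at both times. Its level was 8.78, 8.76 and 7.86 FPKM in untreated libraries, 5.57, 5.84 and 5.55 at 1 h, and 1.05, 1.17 and 1.18 at 12 h. The 3 groups were fully apart. The means of 8.47 ± 0.525, 5.65 ± 0.164 and 1.14 ± 0.0738 FPKM left 66.8% at 1 h and 13.4% at 12 h, which is 7.45-fold lower. Abcd2 had the 10th lowest log2 difference at 12 h, and 38.4% of its fall was present at 1 h.

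Mylip, the ligase that limits lipoprotein uptake, was lower at 1 h by a larger share than the other 4 genes. Untreated libraries had 7.19, 6.73 and 6.87 FPKM, those at 1 h 3.33, 2.59 and 3.42, and those at 12 h 2.71, 2.79 and 2.77. The LPS groups overlapped, since 1 h library 2 lay below all 3 libraries at 12 h. The means were 6.93 ± 0.236, 3.11 ± 0.453 and 2.76 ± 0.0423 FPKM, or 44.9% at 1 h and 39.8% at 12 h. At 1 h, 91.5% of the 12 h fall was already present.

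**Figure D1:**
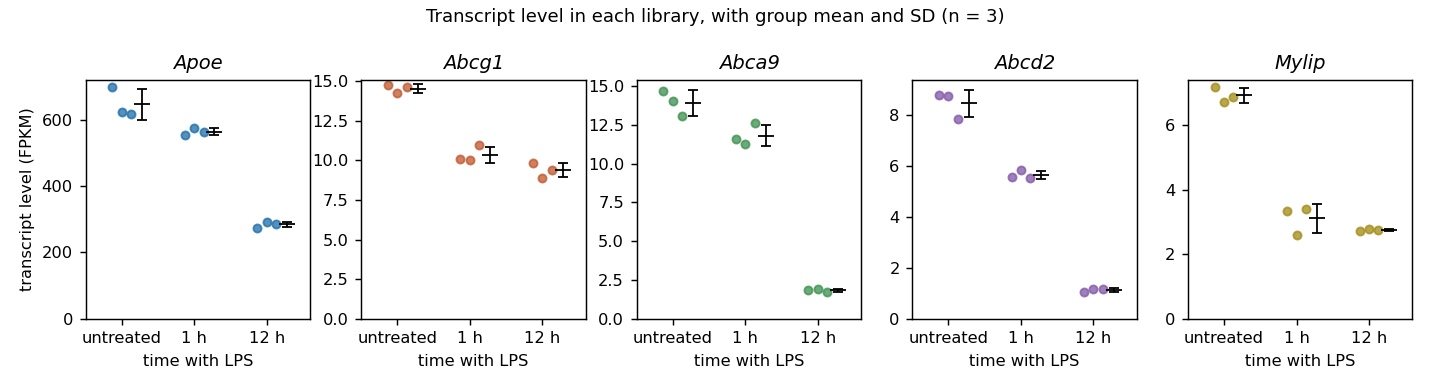
Transcript level in FPKM (vertical axes, each starting at 0) of the 5 genes in untreated cells and after 1 h or 12 h with LPS; points are the 3 libraries of a group, and the cross bar with whiskers is the mean ± SD. The groups are apart for each gene except Mylip at 1 h and 12 h, and Abca9 and Abcd2 end at 1.84 and 1.14 FPKM.

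The 5 genes thus did not share 1 time course. Mylip and Abcg1 had most of their fall by 1 h, and Apoe, Abca9 and Abcd2 had most of it after 1 h. The order of levels changed with it. In untreated cells Apoe stood first, Abcg1 and Abca9 followed with overlapping ranges, and Abcd2 and Mylip came last with ranges apart. At 1 h the order was Apoe, Abca9, Abcg1, Abcd2 and Mylip, with neighbouring ranges apart. At 12 h it was Apoe, Abcg1, Mylip, Abca9 and Abcd2, again with neighbouring ranges apart. The ratio of the FPKM of Apoe to that of Abcg1, from group means, was 44.6 in untreated cells, 54.4 at 1 h and 30.3 at 12 h. The ratio to Abca9 was 46.5, 47.7 and 154.

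**Figure D2:**
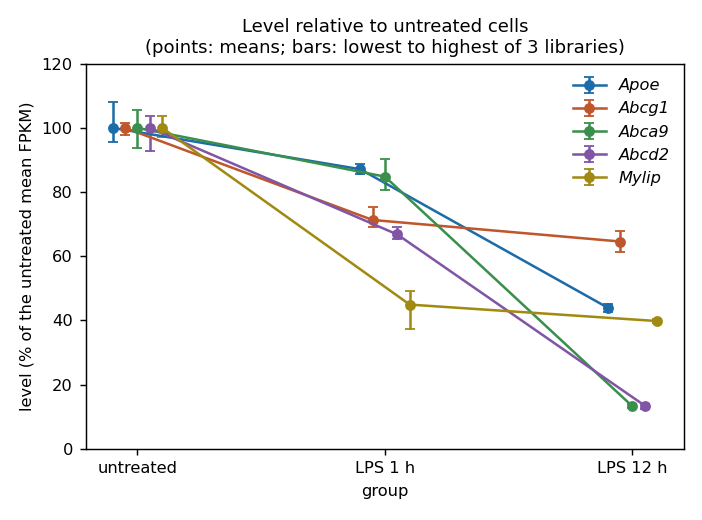
Mean level of each gene as a percentage of its untreated mean FPKM (vertical axis) by group (horizontal axis, not to scale in time); points are means and bars run from the lowest to the highest of the 3 libraries. Mylip is lowest at 1 h (44.9%), and Abca9 and Abcd2 are lowest at 12 h (13.2% and 13.4%).

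Differences were also taken on the log2(FPKM + 1) scale, in 1 limma fit over the 9 libraries and the 5643 genes whose mean reached 1 FPKM. At 1 h versus untreated cells the log2 difference was -0.20 ± 0.041 (SE) for Apoe, -0.45 ± 0.046 for Abcg1, -0.22 ± 0.054 for Abca9, -0.51 ± 0.054 for Abcd2 and -0.95 ± 0.069 for Mylip. At 12 h it was -1.18, -0.58, -2.39, -2.15 and -1.08 in the same order of genes, with the same SE. The added 1 understates the change of low genes such as Abcd2. From 1 h to 12 h the differences were -0.98 for Apoe, -2.17 for Abca9 and -1.64 for Abcd2, but -0.13 for Abcg1 and -0.12 for Mylip. For Abcg1 the value was -0.09 without 1 h library 3, -0.10 without 12 h library 2 and -0.09 under quantile normalization, and each of these ended its call. For Mylip the value ran from -0.07 without 1 h library 3 and -0.08 without 1 h library 1 to -0.22 without 1 h library 2, and only the last was called.

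A gene was called at a Benjamini-Hochberg adjusted p under 0.05 over the tested genes. The authors' table holds only genes that their own test had picked out among these libraries, so calls are frequent. At 1 h 34.9% of tested genes were called lower and 24.1% higher. At 12 h versus untreated cells the shares were 40.6% and 41.1%, and at 12 h versus 1 h 43.6% and 41.9%. All 5 members were called lower at 1 h and at 12 h, and 4 of 5 between the times, Mylip being the exception. Since the genes were chosen with these levels known, nothing is read from those counts. Ranges lay apart downward in 5, 5 and 4 of the 5 members, beside 38.2%, 40.9% and 44.2% of tested genes. The comparisons with untreated cells share the same 3 control libraries.

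**Figure D3:**
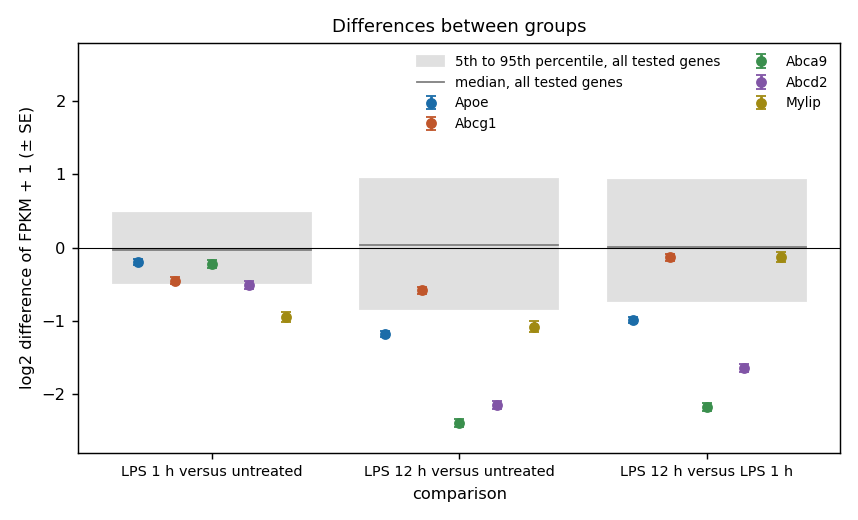
Log2 difference of FPKM + 1 between groups (vertical axis, ± SE from the limma fit) for the 5 genes in the 3 comparisons; grey bands span the 5th to 95th percentile of the 5643 tested genes and the grey line is their median. Apoe, Abca9, Abcd2 and Mylip lie below the band at 12 h versus untreated cells, and Abcg1 (-0.58) lies inside it.

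The counts for gene lists that follow stand beside 34.9% of all tested genes called lower and 24.1% higher at 1 h, and 40.6% lower and 41.1% higher at 12 h. The wider ABC transporter family had 23 genes in the table, 20 of them tested. At 1 h 4 were called higher, 9 lower and 7 did not pass, with a median log2 difference of -0.10 beside -0.03 over all tested genes. At 12 h 6 were higher, 13 lower and 1 missed the threshold, the median being -0.45 beside 0.03. These counts include Abca9, Abcd2 and Abcg1, which were chosen with their falls known and were called lower at both times. Nothing about the rest of the family is therefore read from the counts or medians. From 1 h to 12 h 4 were higher and 14 lower. The 4 higher calls at 1 h fell to 1 without untreated library 1 or 1 h library 2, to 2 without untreated library 3, 1 h library 1 or 1 h library 3, and to 1 under quantile normalization.

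Among the closest relatives, Abca1, which loads cholesterol onto lipid-poor apolipoproteins, stood at 5.75 ± 0.217, 6.17 ± 0.326 and 4.64 ± 0.266 FPKM. Its log2 difference of 0.09 at 1 h did not pass (limma, adjusted p = 0.170), and it fell by 0.26 at 12 h (limma, adjusted p = 0.000376). Abcd4, which acts in lysosomal export of vitamin B12 and not in peroxisomes, fell by 0.31 at 1 h but rose by 0.47 at 12 h, with levels of 5.39, 4.15 and 7.85 FPKM. Abca2, an endosomal and lysosomal lipid transporter, had -0.07 at 1 h, which did not pass, and fell by 1.04 at 12 h. Thus the paralogs of the members differed from one another in direction at 12 h. Abca7, Abca8a, Abca5, Abcg2 and Abcd3 are not listed in the authors' table, so they were not analysed here.

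Abca9 lies between Abca8a and Abca6 in a run of related genes, in the gene order of GRCm38.p6. Abca6 averaged 0.954 ± 0.0981 FPKM in untreated cells, 0.716 ± 0.0562 at 1 h and 0.117 ± 0.00725 at 12 h, or 75.1% and 12.3% of its untreated level. Abca8b went the other way, with 0.250 ± 0.0401, 0.269 ± 0.107 and 0.644 ± 0.0799 FPKM. Both lay below the filter on level, so neither was tested. Of the 50-base words in the annotated Abca9 transcripts, 0.162% also occur in Abca6 and in no other gene, and the authors' handling of shared reads is not stated. For the other 4 genes that share was at most 0.441%. Map2k6, 3 genes from Abca9, fell by 0.65 at 12 h. Of the listed genes within 3 places of Mylip, Gmpr fell by 0.64 and Jarid2 by 0.45 at 12 h, while Cd83 rose by 2.38 at 1 h and fell by 1.12 at 12 h. Tomm40, the listed gene next to Apoe, stood at 81.4, 85.6 and 85.4 FPKM and was not called in any of the 3 comparisons.

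**Figure D4:**
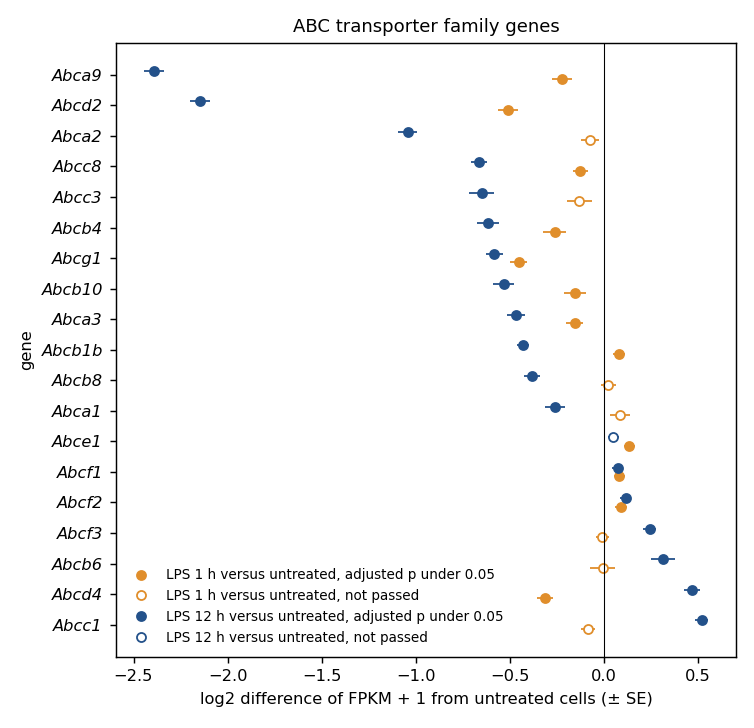
Log2 difference of FPKM + 1 from untreated cells (horizontal axis, ± SE) for 19 of the 20 tested ABC transporter genes at 1 h (orange) and 12 h (blue); filled points had an adjusted p under 0.05 and open points did not. Abca9 (-2.39) and Abcd2 (-2.15) are lowest at 12 h, and Abcc1 (0.52) and Abcd4 (0.47) are highest.

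The list of LXR targets and regulators pools target genes with genes of regulators such as Rxra. Of 15 tested genes, 9 were called lower and 1 higher at 1 h (median log2 difference -0.16 beside -0.03 over all tested genes). At 12 h 12 were lower and 2 higher (median -0.38 beside 0.03). Apoe, Abcg1 and Mylip, chosen with their falls known, are in these counts and were called lower at both times. Of the other targets, Scd2 and Arl4c were called lower and Fasn higher at 1 h, while Abca1, Srebf1, Lpcat3 and Lpl did not pass. Except for Lpcat3, each of these was called lower at 12 h. Scd2 and Lpcat3 were named after their values were seen. Arl4c, a small GTPase and LXR target, fell from 18.1 ± 1.47 to 5.56 ± 0.189 FPKM at 12 h, a log2 difference of -1.54. Rxra, the receptor that pairs with LXR, fell by 0.73 at 12 h, from 28.7 ± 0.971 to 16.9 ± 0.652 FPKM. Srebf1, which drives fatty acid synthesis, had 0.05 at 1 h, which did not pass (limma, adjusted p = 0.283), and fell by 0.29 at 12 h. At 1 h Fasn, fatty acid synthase, was the 1 gene called higher, at 0.33; it was named after its value was seen. Of the 2 higher calls at 12 h, 1 was lost when any single library of the comparison was left out. Nr1h2 and Nr1h3, the genes of the receptors themselves, are not listed in the authors' table, so they were not analysed here.

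Of the genes of sterol uptake and lysosomal release, Mylip among them, 8 of 14 tested were lower and 1 was higher at 1 h, with a median of -0.13 beside -0.03 over all tested genes. At 12 h 7 were higher and 4 lower, Mylip being 1 of the 4, with a median of 0.12 beside 0.03. Calls in both directions were also frequent over all tested genes at 12 h (41.1% higher and 40.6% lower). Msr1, a scavenger receptor for modified lipoproteins, rose from 0.745 to 5.81 FPKM at 12 h (log2 difference 1.96). Trem2, a lipid-sensing receptor that also binds APOE, fell by 0.92, and Lipa, the lysosomal acid lipase, fell by 0.83 at 12 h.

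Among genes of lipid droplets, sterol esters and oxysterols, 9 of 13 tested were lower at 1 h and 0 higher. In limma 0 were higher at an unadjusted p under 0.05 as well, and 1 was called higher under quantile normalization. At 12 h 7 were higher and 5 lower, with a median of 0.16 beside 0.03, where all tested genes also went in both directions (41.1% higher and 40.6% lower). Soat2, which esterifies cholesterol, rose from 1.42 ± 0.073 to 5.51 ± 0.168 FPKM at 12 h. Plin2, the coat protein of lipid droplets, rose from 26.6 ± 0.448 to 51.8 ± 1.91 FPKM, and Hilpda, an inhibitor of triglyceride breakdown, rose by 0.72. Acat1, a mitochondrial thiolase, fell by 0.42. At 1 h the largest falls were in Hsd3b7, an enzyme of bile acid and oxysterol metabolism (-0.51), and in Plin3, another droplet coat protein (-0.25).

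Peroxisomal genes, counted with Abcd2 itself, were lower in 11 of 18 tested at 1 h and again in 11 of 18 at 12 h, with 3 and 4 higher. Their medians were -0.17 and -0.41. Pex6, which recycles a peroxisomal import receptor, fell by 0.64 at 12 h. Acsl4, which activates polyunsaturated fatty acids, rose by 0.64 at 12 h.

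Few apolipoprotein genes were listed. Besides Apoe, 5 genes of lipoproteins and their remodelling were tested. Clu, the apolipoprotein clusterin, rose from 12.8 ± 0.609 to 21.9 ± 1.41 FPKM at 12 h, opposite to Apoe. Lipg, endothelial lipase, rose by 0.63 at 1 h and by 1.10 at 12 h. Lpl, lipoprotein lipase, fell by 0.41 at 12 h. Apobr, a receptor for apolipoprotein B particles, fell by 0.28 at 1 h but was higher than in untreated cells by 0.26 at 12 h. In all 1 was higher and 3 lower at 1 h (median -0.09), and 3 were higher and 3 lower at 12 h (median -0.04).

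Targets of SREBP2, the factor that drives cholesterol synthesis and uptake when sterols are low, moved the other way at 1 h. Of 16 tested genes, 13 were higher and 0 lower at 1 h, with 0 lower in limma at an unadjusted p under 0.05 too, and a median of 0.32. At 12 h 5 were higher and 9 lower, with a median of -0.15. Insig1, which retains the SREBP complex in the endoplasmic reticulum, rose from 46.3 ± 1.33 to 87.9 ± 2.74 FPKM at 1 h. At 12 h Insig1 was lower than in untreated cells by 0.26. Hmgcs1, an early enzyme of cholesterol synthesis, and Stard4, a sterol carrier, were higher by 0.54 and 0.20 at 1 h. At 12 h they were lower than in untreated cells by 0.55 and 0.42, while Lss, which closes the sterol ring system, rose by 0.41.

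**Figure D5:**
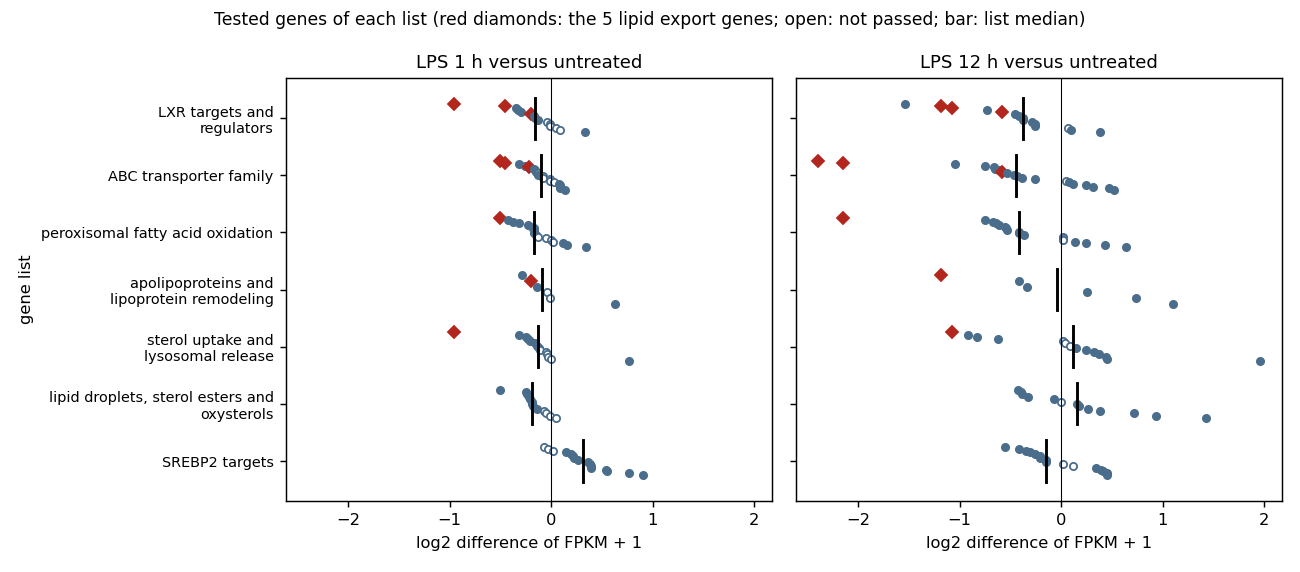
Log2 difference of FPKM + 1 from untreated cells (horizontal axes) for the tested genes of 7 lists at 1 h (left) and 12 h (right). Each point is a gene, open points did not pass and bars are list medians. Diamonds are the 5 genes described here, which the figure title calls lipid export genes although not all of them act in export. SREBP2 targets have a median of 0.32 at 1 h, and the ABC family, LXR and peroxisomal lists have medians of -0.45, -0.38 and -0.41 at 12 h.

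The tested genes most like each member were those with the smallest root mean square difference, over the 9 libraries, of log2(FPKM + 1) centred on the untreated mean. For Apoe they were Maged1 (0.047), Eno3 (0.065) and Pald1 (0.066). For Abcg1 they were Tnrc18 (0.046), Gm14305 (0.061) and Adgrg1 (0.066). The added 1 understates changes of low genes, so likeness on this scale does not mean an equal share lost. Abcg1 held 71.3% of its untreated level at 1 h and 64.6% at 12 h, and Tnrc18 69.3% and 65.8%. Gm14305, at 1.83 FPKM in untreated cells, held 60.9% and 45.7%, and Adgrg1, at 2.06 FPKM, held 55.7% and 49.3%. Abca9 was most like Ltc4s (0.091), the gene of leukotriene C4 synthase, ahead of St6gal1 (0.16) and Mxd4 (0.18). Abcd2 had no gene as near, the first being Asb10 (0.16), Ephx1 (0.18) and Pdcd4 (0.19). Mylip was nearest to Gsn (0.082), Lpar6 (0.10) and Ndrg1 (0.14). No member was among the 3 nearest genes of another.

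Of 14 microglial markers, 10 were in the table and 7 were tested. The summed level of the 10 was 1172 to 1262 FPKM in untreated libraries, 1134 to 1169 at 1 h and 1038 to 1083 at 12 h. Most of this sum is Tyrobp (means of 559.8, 545.1 and 412.3 FPKM) and Cd68 (390.6, 367.8 and 390.9). It therefore says little about the other markers. At 12 h 2 of the 7 were called higher, Itgam (1.30) and Spi1 (0.50), and 4 lower, Trem2 (-0.92), Cx3cr1 (-0.56), Csf1r (-0.47) and Tyrobp (-0.44), while Cd68 did not pass. P2ry12, Fcrls and C1qa, markers of microglia in the brain, were at or below 1.24 FPKM in each group mean and were not tested. Their 12 h means of 0.219, 0.138 and 0.0738 FPKM were 17.6%, 14.97% and 11.7% of the untreated means, with ranges apart. At such low levels and with depth unknown, these shares are uncertain. Of markers of other cells, 1 of 8 for astrocytes (Aldoc, 25.2 to 33.8 FPKM), 1 of 7 for oligodendrocytes (Olig2, 0 to 0.084), 0 of 6 for neurons and 1 of 5 for endothelium (Flt1, 15.2 to 21.8) were in the table. Because the authors' test decided which genes are listed, a marker that is absent from the table may still be expressed. These counts cannot show whether other cells were present. The listed FPKM summed to 195872 to 198075 in untreated libraries, 203515 to 205413 after 1 h of LPS and 223720 to 228207 after 12 h. What part these shifts have in the falls of the members was not tested. BV2 is a single cell line, and bulk RNA cannot tell a lower level in every cell from a fall in only some of the cells.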

How the data were processed

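BV2 libraries were made from TRIzol-extracted RNA with a TruSeq Stranded mRNA kit, per the labels' protocols. The submitters' processing notes list the tools DESeq, HTSeq, Cufflinks, HISAT2 and Trimmomatic, with neither version nor role, and GRCh38, a human build, although the genes are mouse genes, so the build is unclear and no gene position was taken from them. The authors deposited FPKM per gene for the 9 libraries. Further columns are, per the file headers, a p-value, a q-value (highest 0.09993), a rank score and a flag score that is 1 in every row; none was used to call genes.

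From these, log2(FPKM + 1) was fitted with limma 3.58.1 in R 4.3.3 (eBayes with trend, 1 mean per group, 9 libraries). The 5643 genes whose mean reached 1 FPKM were tested, and 819 fell below. The fit was tested on simulated data. Members, lists and tests were chosen with earlier results of these data known. Named genes are the members, listed close paralogs and LXR regulators, for each list up to 4 called genes with the largest log2 difference at 12 h and up to 2 at 1 h (at least 5 FPKM in the higher group), and the 3 genes most like each member; a few genes that the rule names are not reported here, although the counts include them. Neighbouring genes, shared words and promoters were added after seeing the data. The 9 motifs were chosen after a first look at the windows. Promoters and gene order are RefSeq's; transcripts and exons are from GENCODE.

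The table gives no read counts and depth is unknown. Rules for reading it from steps in low FPKM were tried in 4 versions, each one revised once the result of the one before was known. They found 11, 0, 2 and 7 genes, and the single-gene estimates ran from 4873960 to 80363900 fragments, so no depth, interval or floor is given. The counts of called genes, the members' log2 differences and the counts for gene lists other than markers were recomputed under other settings. These were pseudocounts of 0.1 and 0.5, no filter or a mean of at least 5 FPKM, and quantile or median-of-ratios scaling. Further settings were eBayes lacking the trend, the 6 libraries of a comparison alone, a block for library number, and each library omitted. Marker counts, likeness, neighbours, level ranks, ratios to Apoe and the share of the fall present at 1 h were not recomputed.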

Additional observations from a re-analysis of the deposited data

How the results depend on the processing

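No difference of a member reversed under any alternative, and the counts of called genes over the table stayed within 1.5 times their value in all 45 recomputations. Of the members' differences, 206 recomputed values moved by less than the spread between replicates and 16 moved by more. Some of the 206 could not move, because several settings leave the difference of group means as it is. These were eBayes without the trend, the replicate block, the 6 libraries alone, no filter and a mean of at least 5 FPKM. They gave 15 of the 206 values each, or 12 for the last, and say nothing about how stable the differences are. With a pseudocount of 0.1 the 12 h versus untreated difference was -2.85 for Abca9, -2.79 for Abcd2 and -1.30 for Mylip, the 12 h versus 1 h difference was -2.62 for Abca9 and -2.22 for Abcd2, and the 1 h difference was -0.57 for Abcd2 and -1.14 for Mylip. With 0.5 the 12 h versus untreated values were -2.62, -2.45 and -1.19 for Abca9, Abcd2 and Mylip, and the 12 h versus 1 h values -2.39 and -1.91 for Abca9 and Abcd2. A smaller pseudocount shrinks low levels less by construction. Under quantile normalization Apoe had -1.33 (12 h versus untreated) and -1.14 (12 h versus 1 h), and Abcd2 -2.01 and -1.55; the cause was not tested. Mylip drops out at a mean of at least 5 FPKM.

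Of the list counts, 607 recomputed values stayed within 1.5 times and 23 moved. Under quantile normalization the higher calls at 1 h were 1 in the ABC family, 2 among LXR genes and 1 among lipid droplet genes. Without the filter on level the apolipoprotein list had 5 higher at 12 h versus untreated cells and 5 at 12 h versus 1 h, and sterol uptake had 2 higher at 1 h, since more genes were tested. The LXR genes higher at 12 h versus untreated cells were 1 at a mean of at least 5 FPKM, 1 with only the 6 libraries compared, and 1 with the replicate block. Leaving out 1 library at a time gave 1 to 3 ABC genes higher at 1 h, 1 to 1 LXR genes higher at 12 h versus untreated cells, and 1 to 3 at 12 h versus 1 h, the last falling to 1 without 1 h library 1, 1 h library 3 or 12 h library 2.

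No pairing by library number was seen: residual correlations were -0.067 to 0.128 for the 9 pairs of the same number and -0.146 to 0.138 for the 18 others. With 3 libraries per group this check cannot exclude a pairing. With the number as a replicate block 3292, 4591 and 4807 genes were called at 1 h, at 12 h and between them, against 3330, 4611 and 4823 without it. Unknown depth limits what the lowest values (Abcd2 at 12 h, Abca6, Abca8b, P2ry12, Fcrls and C1qa) can show.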
